A study of Mus musculus with 5 samples.

Results

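A subset of SOX9 ChIP-seq peaks in the mouse embryo overlaps regions listed for unprecipitated heart chromatin, the input. The members were chosen by overlap: every peak of the atrioventricular canal (AVC) list, and every distinct peak of the limb list, with 1 bp or more inside a region of the input list. There are 972 of them among 11692 SOX9 peaks, 222 of 2603 in the AVC and 750 of 9089 in the limb. These are 8.53% of AVC peaks (Wilson 95% interval 7.52 to 9.66) and 8.25% of limb peaks (7.70 to 8.84). The overlap is what defined the members, so these shares describe the lists and were not tested. All intervals given here cover counting error only.

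Chromatin was immunoprecipitated with an antibody against SOX9 from manually dissected AVCs and from limb buds of wild-type C57BL/6 embryos at embryonic day 12.5. Input chromatin, with no antibody, came from whole hearts of wild-type C57BL/6 embryos at embryonic day 10.5. The dissected AVC is the part of the heart between atria and ventricles and holds myocardium and endothelium beside the valve mesenchyme named in the labels. The input is 2 days younger than either SOX9 sample, holds the whole heart, and holds no limb. Each group had 1 sample, so no spread between replicates is known, and peaks of 1 sample are not replicates of a condition. For this reason no p-value is given, and peaks inside input regions are set beside the other peaks of the same list by their values and intervals.

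SOX9 is a transcription factor of the SRY-related HMG-box family that drives cartilage formation in the limb. In the heart it acts in the mesenchyme of the endocardial cushions, from which the valves form. ChIP-seq enriches DNA bound by a factor, and sheared input DNA shows how many reads a place gives without enrichment. Input can pile up where chromatin shears easily, where a sequence is repeated or collapsed in the assembly, or where reads map unevenly. Peaks over input regions are therefore often set aside in peak lists. Positions are those of the deposited lists (mouse build mm9), counted from 1. Genes at these positions were not analysed here.

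The deposited lists give each peak or region a whole-number height, the authors' own value. No source used here says what it counts. The minimum height is 8 for AVC peaks, 28 for limb peaks and 20 for input regions, so a height has meaning only beside others of its list. Input regions are far wider than peaks, with a median of 6703 bp against 292 bp for AVC and 297 bp for limb peaks. The 14219 input regions cover 118 Mb, or 4.60% of the length between the first and the last input region of each chromosome.

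Most SOX9 peaks in input regions lay in low, broad ones, which also make up most of the input length. Regions under height 30 and at least 2000 bp wide held 207 of the 222 AVC and 735 of the 750 limb peaks, and 113.6 of the 118.4 Mb. Regions of height 30 or more and under 2000 bp covered 0.500 Mb and held 1 AVC and 0 limb peaks. At that length the AVC density was 2.00 per Mb (exact Poisson 95% interval 0.0506 to 11.1) and the limb count allowed up to 7.38 per Mb, so a difference from other regions was not detectable there. A SOX9 peak of either tissue lay in 838 of the 14219 input regions, or 5.89%. The height of these 838 regions ran from 20 to 66 with a median of 21, and 75% of them stood at 22 or less. The 13381 regions without a SOX9 peak also had a median height of 21, but reached 281. Height 30 or more was found in 11 regions with a SOX9 peak, 1.31% of them (0.735 to 2.34), and in 991 regions without one, 7.41% (6.97 to 7.86). Regions of height 30 or more were mostly narrow, with a median width of 1092 bp, against 7101 bp for lower regions. Of all input regions of 1000 to 1996 bp, 1.08% held a SOX9 peak. Among regions at least 2000 bp wide, 2.90% (1.58 to 5.25) of those of height 30 or more held a SOX9 peak. Of the lower ones, 6.92% (6.47 to 7.39) did. Under 2000 bp these shares were 0.152% (0.0269 to 0.857) and 1.07% (0.662 to 1.74). Median widths still differed, 5373 against 7947 bp in the wider class and 645 against 1107 bp in the narrower, so width was not held equal. None of the 116 input regions of height 100 or more held a SOX9 peak of either tissue, which allows a share of up to 2.59%. The 6 tallest input regions, with heights from 265 to 281, are among these 116. They lie on chromosomes 2, 9 (2 regions), 15, 18 and Y, and the tallest is a 620 bp region at chr2:98503794-98504413.

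**Figure D1:**
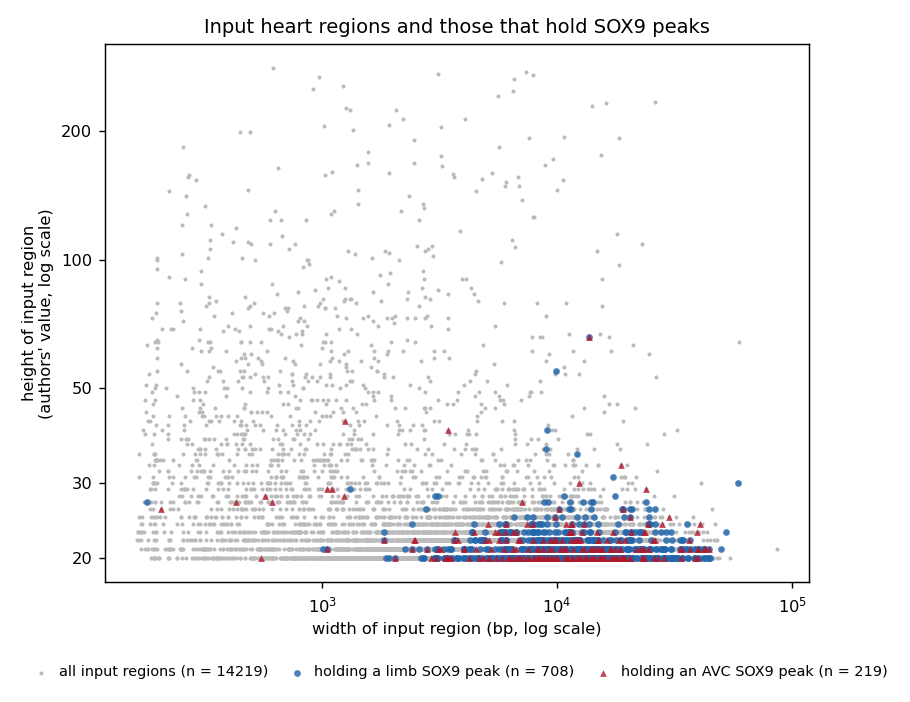
Each point is 1 input region, placed by its width in bp and its height (both axes are log scales). Grey points are all 14219 regions, blue circles the 708 that hold a limb SOX9 peak and red triangles the 219 that hold an AVC SOX9 peak. The coloured points lie mostly at heights of 20 to 29 and widths above 2000 bp, and none lies above height 66.

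Regions with a SOX9 peak were also wider. Their median width was 12033 bp (11292 to 12606), against 6448 bp (6319 to 6579) for regions without one. A wide region offers more room for an overlap, so part of this follows from the rule. The share of regions with a SOX9 peak was 0.530% at widths under 1000 bp, 5.31% from 5000 to 9999 bp and 16.9% at 20000 bp or more. Counted per Mb of input region, the picture differs. Limb peaks stood at 6.43 per Mb in regions of 2000 to 4999 bp (5.03 to 8.09), 6.13 from 5000 to 9999 bp, 6.55 from 10000 to 19983 bp and 6.37 (5.42 to 7.45) in wider ones. Over that range of widths the limb density was level within its intervals.

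AVC peaks were densest in the narrowest input regions. Their density was 8.35 per Mb (2.71 to 19.5) in regions under 1000 bp, from 5 peaks. It was 3.92 (1.44 to 8.54) from 1000 to 1996 bp, 2.23 (1.44 to 3.29) from 2000 to 4999 bp and 1.61 (1.15 to 2.20) at 20000 bp or more. A peak can overlap a narrow region from outside it. With the mean peak width added to each region, the AVC density under 1000 bp was 5.29 per Mb and at 20000 bp or more 1.60 per Mb. Limb density under 1000 bp rested on 1 peak.

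By input height, AVC density was 1.66 per Mb (1.33 to 2.04) in regions of height 20, 1.74 at 21, 2.14 at 22 and 2.65 (1.92 to 3.55) from 23 to 29. Limb density was 6.2 per Mb (5.56 to 6.90) at height 20 and 7.04 (5.82 to 8.43) from 23 to 29. In the 1002 regions of height 30 or more, limb density was 2.24 per Mb (0.902 to 4.62), from 7 peaks. This is below the 6.45 per Mb (5.99 to 6.93) in lower regions, and the intervals do not overlap. AVC density was 1.60 per Mb (0.520 to 3.74) in the tall regions, from 5 peaks, and 1.88 (1.64 to 2.15) in lower ones, with overlapping intervals.

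SOX9 peaks were about as dense in the first 1000 bp outside the input regions as inside them, with overlapping intervals. Densities were lower from 1000 bp on. Each peak was placed by its middle for this count. AVC density was 1.86 per Mb (1.62 to 2.12) inside input regions and 1.96 (1.45 to 2.58) in the first 1000 bp outside. It was 1.34 (0.923 to 1.88) at 1000 to 2000 bp, 1.22 (1.03 to 1.45) at 5000 to 10000 bp and 0.842 (0.797 to 0.889) beyond 50000 bp. Limb density was 6.24 per Mb (5.80 to 6.71) inside, 5.63 (4.75 to 6.63) in the first 1000 bp and 4.15 (3.38 to 5.03) at 1000 to 2000 bp. It was 4.87 (4.47 to 5.30) at 5000 to 10000 bp and 2.75 (2.66 to 2.83) beyond 50000 bp. In both tissues the band beyond 50000 bp, which holds 60.9% of the length, had the lowest density. The density inside was above that outside as a whole, which was 0.969 per Mb (0.930 to 1.01) in the AVC and 3.40 (3.32 to 3.47) in the limb.

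**Figure D2:**
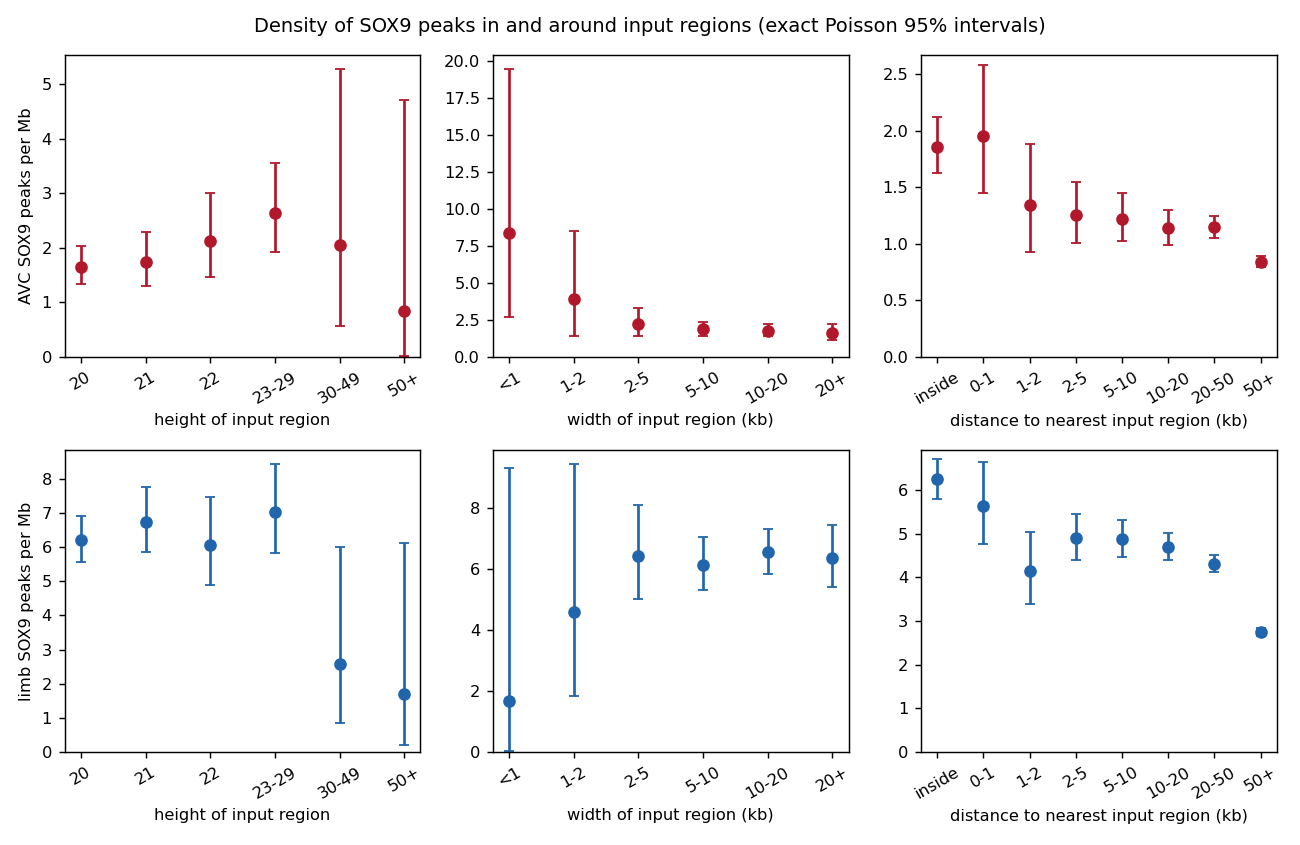
SOX9 peaks per Mb in the AVC (red, upper row) and limb (blue, lower row) by height of the input region (left), its width (middle) and distance of the peak's middle from the nearest input region (right). Points are counts divided by Mb with exact Poisson 95% intervals. The right panels go from 1.86 inside to 0.842 beyond 50 kb in the AVC and from 6.24 to 2.75 in the limb.

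Nearly all of these peaks lay wholly within a region. In the AVC 213 of 222 (95.9%) and in the limb 721 of 750 (96.1%) did so, and none touched more than 1 region. The middle of the peak was 1000 bp or more from the nearer edge for 77.5% of AVC (71.5 to 82.5) and 79.6% of limb peaks (76.6 to 82.3). The middle 50% of the region's length held 53.2% of the AVC peaks (46.6 to 59.6) and 47.9% of the limb peaks (44.3 to 51.4), and both intervals include 50%.

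The few peaks at the border show how the rule divides them. The AVC peak with the fewest bases inside was chr1:44013691-44013966 (height 8), with 35 bp in its region, followed by chr10:52032085-52032291 (height 8, 142 bp) and chr2:90235289-90235494 (height 20, 164 bp). The nearest AVC peaks outside were 10, 76 and 78 bp away, with heights of 10, 9 and 8. In the limb the least inside were chr2:168960456-168960737 (height 37, 10 bp), chr9:41727065-41727334 (height 47, 11 bp) and chr1:158768668-158769079 (height 47, 22 bp). The nearest limb peaks outside were 5, 23 and 27 bp away, with heights of 43, 32 and 28.

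In both lists, peaks inside input regions were less often at the minimum height, and the median height was the same inside and outside. AVC heights inside ran from 8 to 54 with a median of 9 (9 to 10), and those of the other 2381 peaks from 8 to 188 with a median of 9. The minimum height of 8 was found for 71 of the 222 (32%, 26.2 to 38.4) and for 1066 of the others (44.8%, 42.8 to 46.8). The share of AVC peaks inside input regions was 6.24% (4.98 to 7.80) at height 8, 9.59% (7.70 to 11.9) at 9 and 10, 11.3% (8.47 to 14.8) at 11 to 15, 10.1% (6.46 to 15.3) at 16 to 24, and 12% (7.54 to 18.6) at 25 or more. Among the tallest 100 AVC peaks 14 lay in input regions (8.53 to 22.1), and among the tallest 10, 1 did (10%, 1.79 to 40.4). Over all AVC peaks the share was 8.53%. The tallest AVC peak, chr10:52106783-52107159 with a height of 188, lay outside.

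In the limb, heights inside and outside input regions had the same median of 38 (37 to 40 inside, 38 to 39 outside). They ran from 28 to 238 inside and from 28 to 292 outside. The minimum height of 28 was found for 3.60% (2.49 to 5.19) inside and 6.68% (6.16 to 7.24) outside. From the lowest to the highest of 5 height classes, 7.32%, 8.91%, 8.75%, 7.59% and 8.60% of limb peaks lay in input regions. Of the tallest 100 limb peaks, 12 did (7.0 to 19.8). The 90th percentile of height was 78.1 inside and 77.0 outside.

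**Figure D3:**
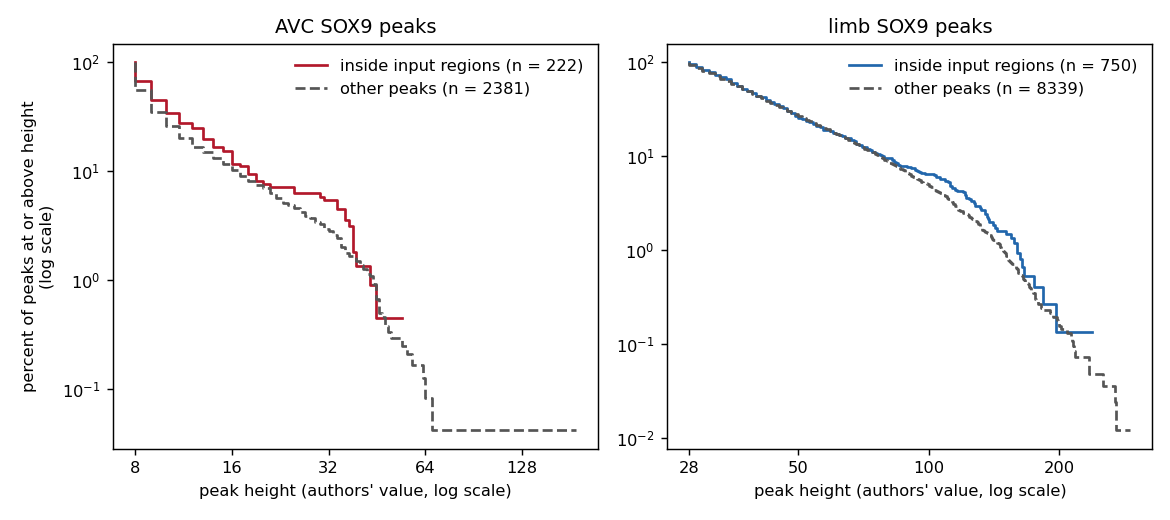
Percent of peaks at or above each height (both axes are log scales) in the AVC (left) and limb (right), for peaks inside input regions (solid, coloured) and the other peaks of the list (dashed, grey). The limb lines lie close together with a shared median of 38, and the tallest AVC peak, at 188, is among the other peaks.

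Peak height was only weakly correlated with the height and width of the input region that held the peak. An input region has 1 height for its whole width, a median of 11496 bp at AVC and 12389 bp at limb peaks. The input directly under a peak was therefore not measured. Of the occupied regions, 75% stood at heights of 20 to 22, which left little range for a correlation with input height. Across the 222 AVC peaks, Spearman's rho was 0.12 between peak height and input height and -0.10 between peak height and input width. Across the 750 limb peaks it was 0.04 and -0.05. Several peaks share an input region, and 1 library gave all heights of a list, so these values are descriptions.

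The peaks of greatest height lay in input regions near the minimum input height, as did most peaks inside input regions. The median input height was 21 at the 222 AVC peaks and 21 at the 750 limb peaks. The tallest AVC peak among them was chr5:140894709-140895221, with a height of 54, in a region of height 20 and width 4206 bp. It was followed by chr7:148414333-148414663 (height 45), chr4:115747716-115748018 (43), chr5:33995014-33995296 (39) and then 3 peaks tied at 38, chr11:70053372-70053643, chr5:42099405-42099696 and chr7:17509563-17509966. The regions around these 7 peaks had heights of 20 or 21 and widths from 3043 to 10882 bp. All 7 overlapped a limb peak, as did 93.2% of the AVC peaks of height 25 or more outside input regions.

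In the limb the tallest was chr7:148414377-148414621, with a height of 238, which overlaps the second tallest AVC peak above. Next came chr5:118771768-118772061 (height 197), chr2:30297314-30297581 (183), chr1:163966679-163966958 (175), chr5:140894717-140895152 (166) and chr7:17509601-17509938 (164). Their input regions had heights of 20 to 22. Of these 6, all but the peak on chromosome 1 overlapped an AVC peak. The tallest limb peaks outside input regions, with heights of 292, 271 and 269, overlapped one too. At height 80 or more, 47.2% of limb peaks inside and 35.4% outside did.

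Sharing was counted as an overlap between listed peaks of the AVC and the limb. Of the AVC peaks inside input regions, 79 of 222 overlapped a limb peak by 1 bp or more, or 35.6% (29.6 to 42.1). The share was 29.4% (27.6 to 31.2) for AVC peaks outside and 29.9% for all AVC peaks. Seen from the limb, 78 of 750 peaks inside input regions overlapped an AVC peak, or 10.4% (8.41 to 12.8). The share was 8.41% (7.83 to 9.02) outside and 8.57% for all limb peaks. In both directions the intervals overlap, and the difference was not tested.

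Sharing went up with height inside input regions and outside them alike. For AVC peaks inside input regions the share with a limb peak was 16.9% (9.94 to 27.3) at height 8, 27.0% at 9 and 10, 51.2% at 11 to 15, 55.6% at 16 to 24 and 93.8% (71.7 to 98.9) at 25 or more. For the other AVC peaks these shares were 11.8%, 25.5%, 52.2%, 67.7% and 93.2%. For limb peaks inside input regions the share with an AVC peak was 1.28% at heights 28 to 31, 6.03% at 32 to 37, 8.57% at 38 to 51, 10.6% at 52 to 79 and 47.2% (36.1 to 58.6) at 80 or more. For the other limb peaks they were 2.58%, 3.49%, 6.26%, 12.4% and 35.4% (32.1 to 38.9). In all 10 classes the intervals inside and outside overlap.

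**Figure D4:**
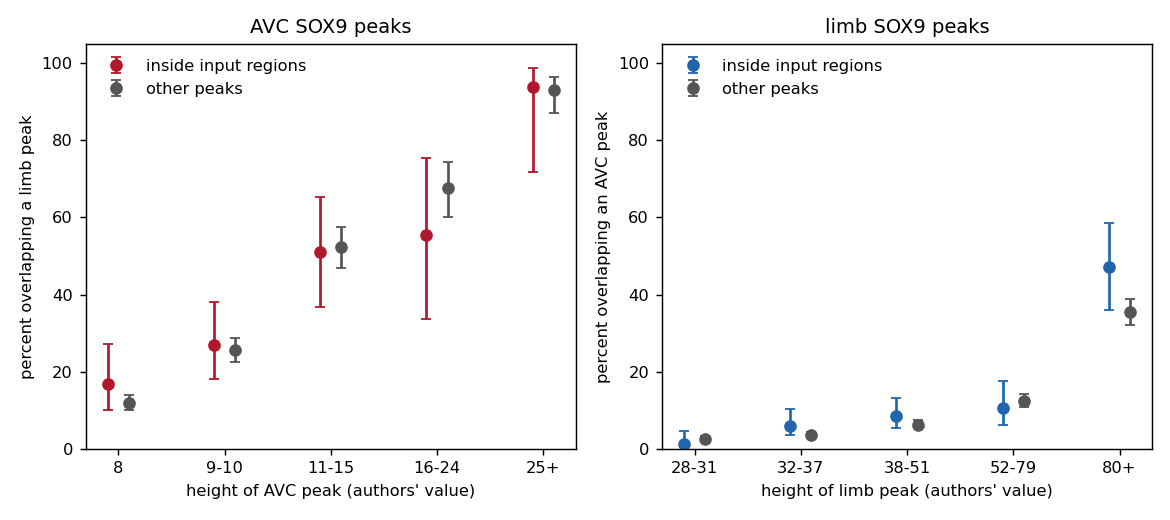
Percent of AVC peaks that overlap a limb peak (left) and of limb peaks that overlap an AVC peak (right), by height class, for peaks inside input regions (coloured) and other peaks (grey), with Wilson 95% intervals. Both sets go up with height, to 93.8% and 93.2% in the tallest AVC class.

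In 78 pairs both peaks lay in an input region. Pairs were defined by overlap, which itself limits how far apart the middles can be. The middles of the AVC and the limb peak were a median of 27.8 bp apart (20 to 41.5), with at most 277 bp, and 53 pairs (67.9%, 57.0 to 77.3) were within 50 bp. For the 701 pairs outside input regions the median was 35.5 bp (32 to 40) and 64.2% (60.6 to 67.7) were within 50 bp. In 1 further pair only the AVC peak touched a region. The median heights of the 78 pairs were 12 in the AVC and 72.5 in the limb, against 11 and 63 outside. Across the 78 pairs, the correlation of AVC and limb height was 0.59 (Pearson, log2 heights) and 0.53 (Spearman), and across the 701 pairs outside 0.61 and 0.55. Each point of these correlations compares the same 2 libraries, so they are descriptions.

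The tallest shared sites show the scale. At chr5:140894709-140895221 the AVC height was 54 and the limb height 166, with middles 30.5 bp apart. At chr7:148414333-148414663 the heights were 45 and 238 and the middles 1 bp apart. At chr4:115747716-115748018 they were 43 and 136, at chr5:33995014-33995296 39 and 141, at chr7:17509563-17509966 38 and 164, at chr5:42099405-42099696 38 and 138, and at chr11:70053372-70053643 38 and 120. The input regions at these 7 sites stood at 20 or 21, beside a median of 21 at all AVC peaks inside input regions.

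A few tall peaks overlapped no listed peak of the other tissue, and those that follow were singled out once their values were known. Signal below the minimum height of the other list cannot be seen here. Among the 16 AVC peaks of height 25 or more inside input regions, 1 overlapped no limb peak. This was chr17:3083599-3083811 (height 25, 213 bp wide), in an input region of height 42 and width 1252 bp. The next tallest unshared AVC peak, chr2:90235289-90235494 (height 20), lay in a region of height 26 that is itself only 207 bp wide, so that peak and region nearly coincide. The next 3, with heights of 17 to 19, lay in regions of 5138 to 18703 bp and heights of 20 to 22. Then came 4 of height 16, in regions of 571 to 24364 bp and heights of 20 to 28. The tallest unshared limb peak, chr1:163966679-163966958, lay in a region of 29354 bp and height 20. It was followed by chr15:12123915-12124164 (height 160) in a region of 5825 bp and height 23, and chr16:96070030-96070558 (160) in a region of 18876 bp and height 20. Next came chr3:19306256-19306533 (157), in a region of 6560 bp and height 25.

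Unshared peaks mostly lay more than 10000 bp from any peak of the other tissue, inside input regions and outside. The distance to expect from the number of peaks in each list was not computed, and the AVC list is the sparser. The median distance to the nearest limb peak was 94870 bp (67717 to 115694) for 141 unshared AVC peaks inside and 103537 bp (93196 to 113068) for 1680 outside. Unshared AVC peaks on chromosome Y, where the limb list has no peak, are left out of this count. For unshared limb peaks the median distance to the nearest AVC peak was 238250 bp (215514 to 272692) inside and 282056 bp (272086 to 293265) outside. A limb peak within 10000 bp was found for 12.8% of the unshared AVC peaks inside (8.23 to 19.3) and 9.58% outside (8.27 to 11.1). Of the unshared limb peaks, 2.53% inside and 2.62% outside were within 10000 bp of an AVC peak.

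Most occupied input regions held a single SOX9 peak. Of the 838 regions, 714 held 1 peak, 115 held 2, 8 held 3 and 1 held 4, counting both tissues. Both an AVC and a limb peak were found in 89 regions, which is 40.6% of the 219 regions with an AVC peak and 12.6% of the 708 with a limb peak. In 78 of these 89 regions an AVC and a limb peak overlapped, and in 11 they lay at separate places. The region with 4 peaks, chr15:81687766-81708299 (height 23), held AVC peaks of height 9 at 81702212-81702479 and 81702847-81703130, and limb peaks of height 34 and 29. The limb peak of height 29, at 81702168-81702504, overlaps the first of the AVC peaks, while the other, at 81688613-81688944, lies near the first base of the region.

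Regions with 3 peaks held them close together or many kb apart. The region chr13:111530309-111549334 (height 26) held AVC peaks of height 10 and 18 and a limb peak of height 42, which overlaps the taller of them. In chr13:23513492-23553153 and chr2:125246126-125288318, both of height 21, 1 AVC peak overlapped 1 of 2 limb peaks, and the other limb peak lay far from them. Its first base was at 23524703 in the former, where the overlapping limb peak began at 23540849, and at 125245887 in the latter, where it began at 125277547. On chromosome 18, chr18:47625924-47639393 and chr18:57883551-57905791, also of height 21, each held 3 limb peaks and no AVC peak. The 3 limb peaks had heights of 28, 42 and 32 in the first region and of 37, 31 and 34 in the second.

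The 11 occupied input regions of height 30 or more held 5 AVC and 7 limb peaks, none of them shared. Counts this small allow shares of up to 60.0% and 42.9%. Over all peaks, 29.9% in the AVC and 8.57% in the limb were shared. The tallest, chr10:80635241-80648912 (height 66), held an AVC peak of height 10 and a limb peak of height 64 at separate places. The next, chr6:31545642-31555577 (height 55), held a limb peak of height 38. Then came chr17:3083472-3084723 (height 42) with the AVC peak named above, chr1:14625492-14634574 (40) with a limb peak of height 29, and chrY:2564728-2568151 (40) with an AVC peak of height 11. The sixth, chr18:8736388-8745349 (36), held a limb peak of height 29. In these tall regions AVC heights ran from 9 to 25 and limb heights from 29 to 64.

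AVC peaks in narrow input regions mostly overlapped no limb peak, as was also true of those in wider regions. Under a width of 2000 bp, 11 AVC peaks were found, of which 2 overlapped a limb peak (18.2%, 5.14 to 47.7). In wider regions 77 of 211 did (36.5%, 30.3 to 43.2), and the intervals overlap. These 11 peaks had a median height of 10 (8 to 25). They include both AVC peaks inside input regions on chromosome X, 1 of the 2 on chromosome Y, chr16:3115505-3115767 (height 10), chr17:53291715-53292023 (height 16) and chr8:19995692-19995954 (height 9). The 2 shared ones, chr10:36694029-36694325 (height 37) and chr3:141981171-141981603 (height 9), overlapped limb peaks of height 131 and 77. In the limb, 8 peaks lay in regions under 2000 bp, and 2 of them (25%, 7.15 to 59.1) are these shared ones.

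The peaks were spread over all chromosomes with at least 50 peaks of a list. In the AVC the share inside input regions was highest on chromosomes 7 (22 of 176 peaks, 12.5%, 8.40 to 18.2), 11 (11.9%) and 10 (11.8%). It was lowest on chromosomes X (2 of 64, 3.13%, 0.861 to 10.7), 12 (4.95%) and 17 (5.43%). The interval of every one of these 20 chromosomes contained the share over all AVC peaks, 8.53%. In the limb it was highest on chromosomes 8 (55 of 481 peaks, 11.4%, 8.89 to 14.6), 13 (9.51%) and 16 (9.46%), and lowest on X (2 of 107, 1.87%, 0.514 to 6.56), 12 (19 of 372, 5.11%, 3.29 to 7.84) and 17 (6.62%). The limb share of all peaks, 8.25%, lay outside the interval for chromosomes X, 12 and 8. The 3 lowest chromosomes were the same in both lists, and over the 19 autosomes the AVC and limb shares had a Spearman's rho of 0.56. The 2 shares are not independent. They use the same input regions, and 79 of the 222 AVC peaks inside overlap a limb peak.

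The X chromosome had little input region for a peak to fall in. Input regions covered 0.262% of the span on X, against 3.42% (chromosome 7) to 6.27% (chromosome 13) on the autosomes. More than 50% of the input regions on X, 52.1%, stood at height 30 or more, against at most 14.5% on an autosome (chromosome 8). On Y, input regions covered 8.40% of a span of 1.64 Mb. The AVC list has 4 peaks there, 2 of them inside input regions, and the limb list none. Over the 19 autosomes, Spearman's rho between the share of peaks inside input regions and the share of the span covered by them was 0.03 in the AVC and 0.36 in the limb. Chromosome 7 had the smallest covered share of the autosomes and the largest share of AVC peaks inside, with 4.34 AVC peaks per Mb of input region.

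**Figure D5:**
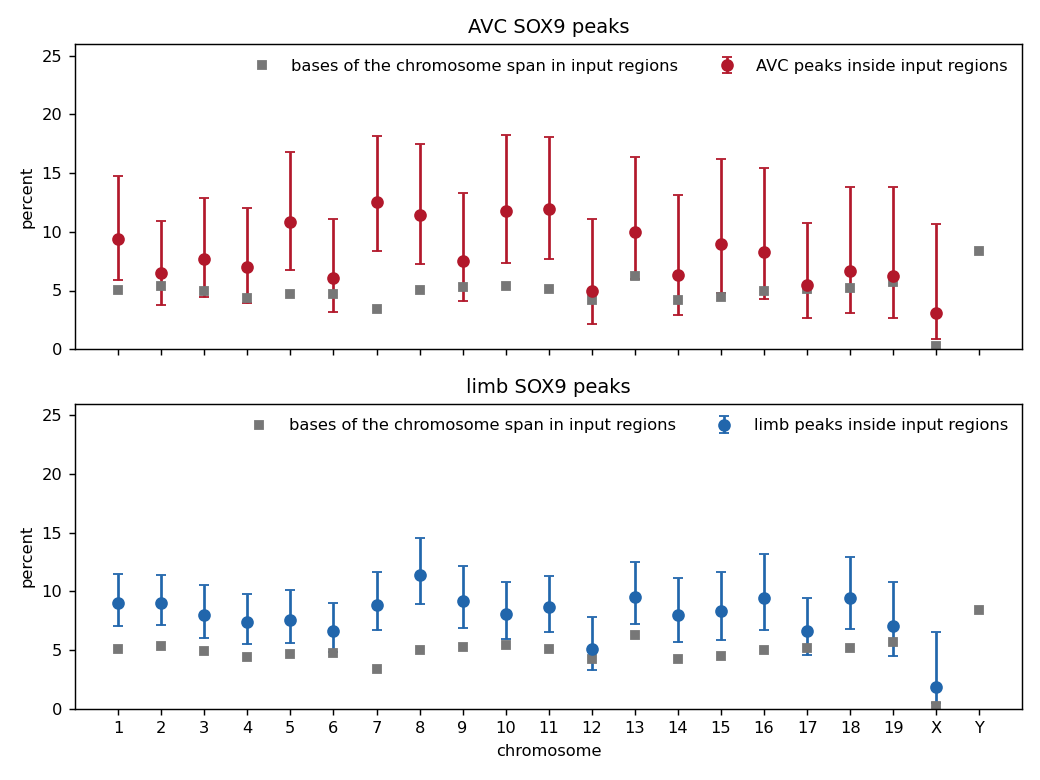
Percent of AVC (upper panel) and limb peaks (lower panel) inside input regions on each chromosome, with Wilson 95% intervals, beside the percent of the chromosome's span covered by input regions (grey squares). Chromosome Y has fewer than 50 peaks in either list and shows only its input share. Chromosome X is lowest in both panels, at 3.13% and 1.87%.

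Chromosomes 7 and 17 had the most and the fewest AVC peaks shared with the limb among those with at least 7 such peaks inside input regions, and were singled out once these values were known. On chromosome 7, 15 of the 22 AVC peaks inside input regions overlapped a limb peak (68.2%, 47.3 to 83.6), against 59 of 154 outside (38.3%, 31.0 to 46.2). On chromosome 17, none of 7 AVC peaks inside did, which allows a share of up to 42.9% (Wilson upper limit 35.4%). Outside, 50 of 122 did (41.0%, 32.7 to 49.9). None of 27 limb peaks inside input regions on chromosome 17 overlapped an AVC peak, which allows up to 11.1% (Wilson upper limit 12.5%). The share outside was 13.1% (10.1 to 16.9). These differences were not tested.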

How the data were processed

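SOX9 peak lists from AVC and limb and a region list from input heart were used, with 1 list per sample, grouped by the sample titles. Per the submitters' processing notes, reads were aligned with BWA to mm9. The peak caller, the scaling of the deposited height (a signal value that the authors gave each peak) and the read depth are not given in the sources analysed here. Lists have different height minimums, which limits which peaks can be seen. The limb list has 9725 lines, of which 636 repeat an earlier line and were counted once.

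Overlap needed 1 bp in common. Shares have Wilson intervals, densities exact Poisson intervals and medians binomial order-statistic intervals (all 95%). For a share with a count of 0, the share said to be allowed is 3 divided by the number counted. This limit is rough where few peaks were counted. Overlap counting was tested on simulated data. The members, height classes and rules for named regions (the 6 tallest in each list, the 6 input regions with most peaks, the 6 tallest, the 3 nearest each side of the border) were chosen with earlier results of these data known. The expression table, an IgG control and the genes or sequence at peaks were not used here. Tables were handled in pandas 2.3.3 and numpy 2.4.6 under Python 3.11.15, intervals came from scipy 1.17.1, and figures were drawn in matplotlib 3.10.9. The alternatives tried were other overlap, height and chromosome settings.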

Additional observations from a re-analysis of the deposited data

How the results depend on the processing

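Of 40 recomputed values for 12 results, 24 stayed within the 95% interval of the reported value and 16 did not. Asking for 50% of the peak inside the region, autosomes only, every limb line or 50% overlap between tissues moved none of the results tried outside that interval. Keeping only input regions of height 30 or more left 5 AVC peaks (0.192%) and 7 limb peaks (0.0770%) instead of 222 and 750. Of these, 0% and 0% were shared, which allows up to 60.0% and 42.9% (Wilson upper limits 43.4% and 35.4%). The median heights of these peaks were 11 and 35. The median height of occupied regions was then 36, and the chromosome shares were 0.568% for AVC on 7, 0% for limb on 8 and 0% for both lists on X. These moves follow from the smaller region list. With AVC peaks of height 12 or more (62 inside), 11.3% lay in input regions, 67.7% of them were shared (69.5% of the others), and 5.60% of the limb peaks inside were shared (4.04% of the others). With limb peaks of height 40 or more (350 inside), 27.0% of AVC and 17.1% of limb peaks inside were shared, against 23.1% and 14.2% of the others. Depth is unknown, and without replicate lists no paired or replicate comparison could be made. No paired analysis was possible because each group has 1 sample.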

Other observations

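Repeated lines of the limb list were more frequent among shared peaks. More than 1 line was found for 71 of the 750 limb peaks inside input regions (9.47%, Wilson 95% interval 7.57 to 11.8), against 537 of 8339 outside (6.44%, 5.93 to 6.99). Inside input regions, 16 of 78 shared limb peaks (20.5%, 13.0 to 30.8) and 55 of 672 unshared ones (8.18%, 6.34 to 10.5) were repeated. Outside, these shares were 17.7% (15.0 to 20.7) and 5.41% (4.92 to 5.94). A peak occurred at most 4 times. What produced the repeats was not tested.

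The median width of peaks inside input regions was 302.5 bp (291 to 316) in the AVC, against 291 bp (287 to 295) outside, and 308 bp (299 to 313) in the limb, against 297 bp (295 to 299) outside. The AVC intervals overlap, and the limb intervals meet at 299 bp. A wider peak reaches a region more easily, and the part of this in the difference was not tested.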
